A study of Mus musculus with 15 samples.

Results

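Glucose enters muscle cells by facilitated diffusion through transporters of the GLUT family, encoded by the Slc2a genes. The 9 genes described here are 7 members of that family (Slc2a1, Slc2a3, Slc2a4, Slc2a8, Slc2a9, Slc2a10 and Slc2a12) and a pair of alpha-arrestin genes, Txnip and Arrdc4, out of 49315 genes in the deposited tables. The set was chosen by the measured differences of Slc2a9 and Txnip between the groups of these same libraries. The values of those 2 genes are therefore given as a description, with no p, and tests are given for the other 7. The libraries came from primary myoblasts, the proliferating precursors of muscle fibres, of wild-type C57BL/6J mouse muscle. The cells received small interfering RNA (siRNA) by lipid transfection against Lmod1 (siLmod1), against Sirt1 (siSirt1) or a control siRNA (siCtrl), and all were differentiated for 1 day. Each group held 5 libraries, numbered 1, 2, 3, 4 and 7, and the series text says that 5 different primary lines were used. The number is taken here as the line, so each line has 1 library per group. Lmod1 encodes leiomodin 1, which nucleates actin filaments, and Sirt1 encodes a NAD-dependent deacetylase. Whether an siRNA was 1 sequence or a pool is not given in the sources used here.

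In muscle, GLUT1 (Slc2a1) carries basal glucose uptake and is prominent in proliferating myoblasts. GLUT4 (Slc2a4) is held in vesicles and moves to the surface upon insulin or contraction, and its transcript is a feature of differentiated muscle. Txnip protein binds thioredoxin, lowers glucose uptake by promoting endocytosis of GLUT1 and GLUT4, and is itself made when glucose metabolites activate the transcription factors MondoA and ChREBP with their partner Mlx. Arrdc4 is a close relative of Txnip under the same control. The other transporters differ in cargo: GLUT9 (Slc2a9) carries mainly urate, GLUT3 (Slc2a3) is a high-affinity glucose transporter best known from neurons, and GLUT8 (Slc2a8), GLUT10 (Slc2a10) and GLUT12 (Slc2a12) form a class with largely intracellular members.

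Levels are given in TPM, a unit that corrects for transcript length and library size, as the authors deposited them. Gene positions are those of GENCODE M21 on the build mm10. The libraries held 27135398 to 31829009 counted reads in siLmod1, 21004908 to 27815744 in siSirt1 and 26097889 to 33601761 in siCtrl. Both targets were lower in the group aimed at them. Lmod1 was at 2.01, 4.25, 3.30, 1.08 and 3.30 TPM in siLmod1 lines 1, 2, 3, 4 and 7, against 18.4, 32.6, 29.8, 4.46 and 33.9 TPM in siCtrl. Sirt1 was at 3.07, 2.02, 2.21, 6.71 and 6.06 TPM in siSirt1, against 16.1, 9.79, 13.5, 15.1 and 20.9 TPM in siCtrl. Each target also differed from siCtrl in the other knockdown: Lmod1 averaged 14.0 TPM in siSirt1, against 23.8 TPM in siCtrl, and was lower in 5 of 5 lines, and Sirt1 averaged 22.6 TPM in siLmod1, against 15.1 TPM in siCtrl, and was higher in 5 of 5 lines. Each knockdown of the gene aimed at gave p = 0.00794 in an exact two-sided permutation test over 5 against 5 libraries. That test did not pair libraries by line, and 0.00794 is the smallest p it allows. Summed over 7 myoblast markers, the level was 8634 to 11680 TPM in siLmod1, 8096 to 10350 TPM in siSirt1 and 9350 to 12570 TPM in siCtrl. Line 4 stood apart: Myog, the regulator of myoblast differentiation, was at 1283 TPM in siLmod1, 980.8 TPM in siSirt1 and 1599 TPM in siCtrl of that line, and at 2792 TPM or more in all other libraries.

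Txnip (ENSMUSG00000038393, chr3:96557957-96561883, plus strand) was higher in both knockdowns than in siCtrl, in each of the 5 lines. It was at 29.7, 20.0, 31.4, 6.17 and 24.8 TPM in siLmod1 lines 1, 2, 3, 4 and 7. In siSirt1 it was at 41.2, 25.9, 34.6, 18.0 and 55.7 TPM, and in siCtrl at 18.2, 16.6, 23.0, 3.96 and 19.9 TPM. All siSirt1 libraries but that of line 4 lay above every siCtrl library, whereas siLmod1 and siCtrl overlapped. Line 4 was the lowest line in every group. The difference within a line, on log2 of counts scaled to library size (CPM, with the trimmed mean of M values, TMM) plus 0.1, was 0.17 to 0.70 for siLmod1 and 0.53 to 1.89 for siSirt1. Of all tested genes, 17.4% were higher in all 5 lines of siLmod1, and 10.6% in all 5 lines of siSirt1. Against all siCtrl libraries, the fitted log2 fold change was 0.42 ± 0.47 (SE) in siLmod1 and 0.98 ± 0.41 in siSirt1. With the line as a block, which sets each library against the others of its line, it was 0.42 ± 0.08 in siLmod1 and 1.06 ± 0.20 in siSirt1. Txnip was also higher in siSirt1 than in siLmod1 in all 5 lines, as were 13.8% of genes, with a blocked log2 fold change of 0.62 ± 0.18.

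Slc2a9 (ENSMUSG00000005107, chr5:38349273-38503143, minus strand) was lower in siLmod1 and higher in siSirt1 than in siCtrl, in each line. It was at 0.443, 0.147, 0.080, 0.126 and 0.256 TPM in siLmod1 lines 1, 2, 3, 4 and 7. The siSirt1 libraries had 2.98, 0.648, 1.502, 1.06 and 3.94 TPM, and the siCtrl libraries had 0.726, 0.273, 0.310, 0.139 and 1.28 TPM. In each line the order was siSirt1, siCtrl and siLmod1 from high to low, although groups overlapped across lines. Of all tested genes, 18.7% were lower in all 5 lines of siLmod1. These levels rest on few reads: 4 to 23 counts per library in siLmod1, 26 to 129 in siSirt1 and 7 to 62 in siCtrl. Line 4 differed least between siLmod1 and siCtrl, with 6 counts in siLmod1 and 7 in siCtrl. The log2 fold change was -1.39 ± 0.64 (SE) in siLmod1 and 1.73 ± 0.65 in siSirt1, and with the line as a block it was -1.30 ± 0.35 in siLmod1 and 1.84 ± 0.28 in siSirt1. Between the knockdowns, siSirt1 over siLmod1, it was 3.10 ± 0.60, and 3.07 ± 0.36 with the block.

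**Figure D1:**
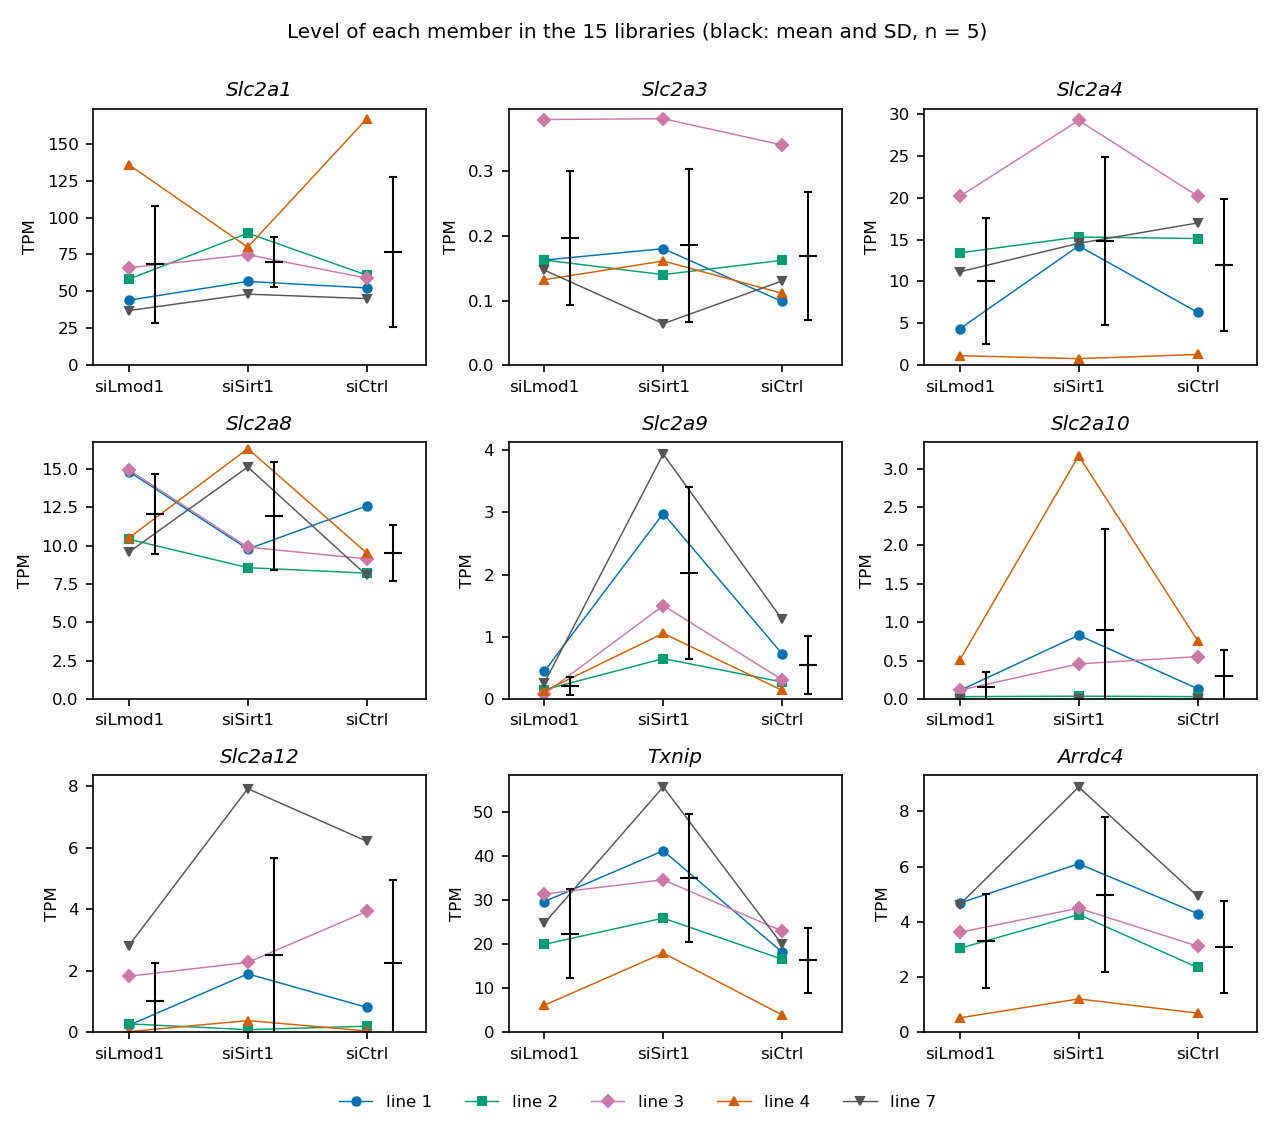
Level of each of the 9 genes in TPM (linear axis from 0, so that lower error bars end at 0) in siLmod1, siSirt1 and siCtrl. Coloured points are libraries joined by line, and black bars are the mean and SD of 5 libraries. Slc2a9 is highest in siSirt1 and lowest in siLmod1 in each line, and line 4 is highest for Slc2a1 in siLmod1 and siCtrl and lowest for Txnip, Arrdc4 and Slc2a4 in each group.

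Arrdc4 (ENSMUSG00000042659, chr7:68736995-68749241, minus strand) shares its domain structure with Txnip, and it is likewise known to restrain glucose uptake. It was at 4.68, 3.05, 3.63, 0.527 and 4.63 TPM in siLmod1 lines 1, 2, 3, 4 and 7. Its siSirt1 levels were 6.10, 4.27, 4.49, 1.21 and 8.88 TPM, and its siCtrl levels were 4.30, 2.35, 3.12, 0.697 and 4.93 TPM. In siSirt1 it was higher than in siCtrl in 5 of 5 lines, by 0.31 to 0.73 on the log2 scale, a pattern that 10.6% of the 14912 genes tested showed. In siLmod1 it was higher in 3 lines and lower in 2. The log2 fold change in siSirt1 was 0.57 ± 0.54 (SE) with an edgeR adjusted p of 0.81, and 0.57 ± 0.17 with an adjusted p of 0.0784 with the line as a block. When all 15 libraries shared 1 blocked fit, the same log2 fold change of 0.57 ± 0.15 passed the threshold with an edgeR adjusted p of 0.0247. DESeq2 with the block gave an adjusted p of 0.0363. The blocked edgeR fit of the pair with any 1 line left out gave adjusted p-values of 0.128 to 0.208. In siLmod1 the blocked value was 0.05 ± 0.14, with an edgeR adjusted p of 0.814.

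The alpha-arrestin family has other members, which act as adaptors for ubiquitin ligases at membrane proteins. Of the 4 not in the set of 9, Arrdc5 had too few reads to test, and Arrdc3, which targets the beta-adrenergic receptor for degradation, was the one called. The calls came with the line as a block. Those fits called 29.5% of all tested genes in siLmod1 and 7.07% in siSirt1 against siCtrl, and 15.9% in siSirt1 against siLmod1. In siLmod1, 1 call among the 3 tested is near that share. Arrdc3 was at 5.51, 8.58, 8.66, 2.84 and 10.98 TPM in siLmod1 lines 1, 2, 3, 4 and 7. In siSirt1 it was at 11.7, 7.75, 13.7, 5.05 and 20.9 TPM, and in siCtrl at 3.61, 4.23, 6.23, 2.23 and 8.73 TPM. Each siLmod1 and each siSirt1 library lay above the siCtrl library of its line. On TMM-scaled CPM, 17.4% of all tested genes were higher in all 5 lines of siLmod1 and 10.6% in all 5 lines of siSirt1. With the line as a block, Arrdc3 rose in siLmod1 by a log2 fold change of 0.52 ± 0.11 (SE; edgeR adjusted p = 0.00517) and in siSirt1 by 1.09 ± 0.13 (edgeR adjusted p = 0.00647). Both blocked calls held when any 1 line was left out, with edgeR adjusted p-values up to 0.0237 in siLmod1 and 0.0277 in siSirt1. Without the block the edgeR adjusted p was 0.808 in siLmod1 and 0.415 in siSirt1. Arrdc3 was higher in siSirt1 than in siLmod1 in 4 of 5 lines (0.57 ± 0.16, edgeR adjusted p = 0.0496 with the block), and that call was lost when line 1, 3, 4 or 7 was left out (adjusted p = 0.111 to 0.148). Arrdc1 averaged 14.8 ± 4.52 TPM in siLmod1, 13.5 ± 6.33 TPM in siSirt1 and 13.1 ± 4.30 TPM in siCtrl (SD, n = 5). Arrdc2 averaged 3.56 ± 0.56 TPM in siLmod1, 4.06 ± 1.95 TPM in siSirt1 and 3.20 ± 0.84 TPM in siCtrl. Neither passed the test in any comparison, with or without the block.

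**Figure D2:**
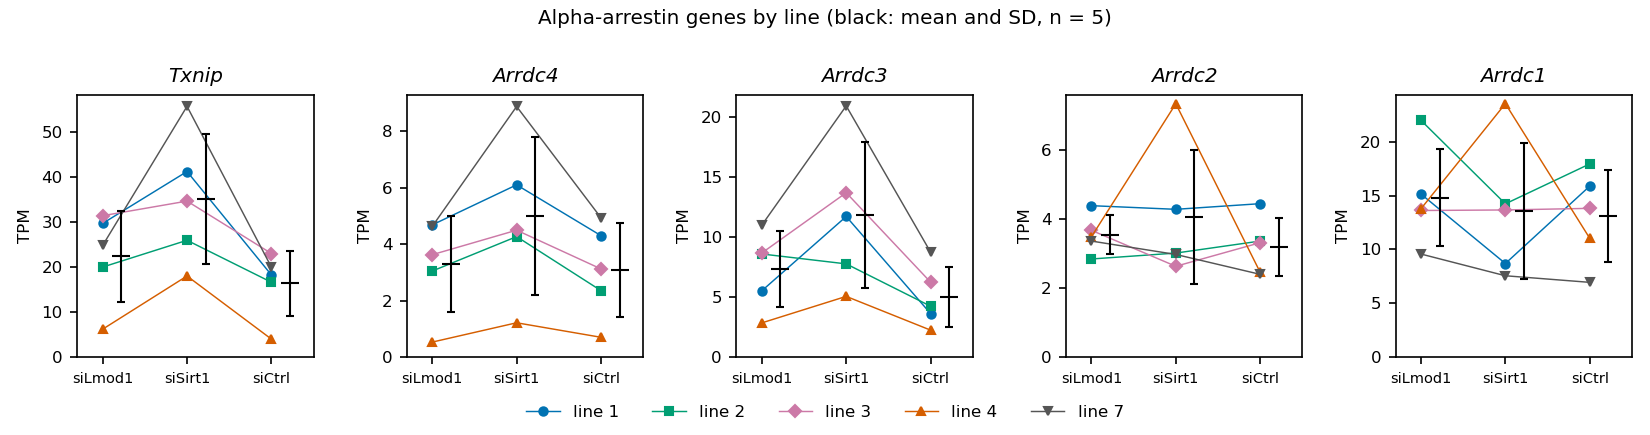
Levels in TPM (linear axes from 0) of 5 alpha-arrestin genes in siLmod1, siSirt1 and siCtrl, with libraries of a line joined and the mean and SD of 5 libraries in black. Txnip, Arrdc4, Arrdc3 and Arrdc2 are highest on average in siSirt1, and Arrdc2 and Arrdc1 have a single high siSirt1 library, that of line 4.

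The start regions of Txnip and Arrdc4 are shown because these genes are textbook targets of MondoA and ChREBP. Each runs 5′ to 3′ on the gene's strand from 250 bases before to 50 bases after the start annotated by RefSeq (GRCm38.p6). Capitals mark the paired word in Txnip and the E-box in Arrdc4, and other words searched stay in lower case. The Txnip window is chr3:96557707-96558006 on the plus strand and the Arrdc4 window is chr7:68749189-68749488 on the minus strand.
Txnip: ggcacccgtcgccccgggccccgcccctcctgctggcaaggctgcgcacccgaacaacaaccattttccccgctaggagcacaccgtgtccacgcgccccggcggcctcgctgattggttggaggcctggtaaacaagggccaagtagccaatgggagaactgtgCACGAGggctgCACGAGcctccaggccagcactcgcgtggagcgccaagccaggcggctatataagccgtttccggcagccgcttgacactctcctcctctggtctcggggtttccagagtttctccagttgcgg
Arrdc4: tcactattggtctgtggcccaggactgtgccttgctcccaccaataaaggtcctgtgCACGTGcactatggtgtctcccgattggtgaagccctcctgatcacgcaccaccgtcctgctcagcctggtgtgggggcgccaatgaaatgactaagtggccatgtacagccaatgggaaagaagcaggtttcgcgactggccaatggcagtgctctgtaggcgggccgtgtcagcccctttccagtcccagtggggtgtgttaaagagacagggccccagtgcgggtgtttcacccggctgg
Words were searched on both strands. The paired word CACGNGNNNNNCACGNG, the spacing by which such factors are known to bind as heterodimers with Mlx, was found in Txnip 85 to 69 bases before the start. It is held by 16 of 32851 promoter windows, 0.0487%. That share counts this exact word, and other forms of a paired site were not searched. Arrdc4 held no such pair but 1 E-box, CACGTG, 193 to 188 bases before the start, a word found in 7.15% of windows. The word CCAAT occurred 2 times in Txnip and 6 times in Arrdc4, and 37.4% of windows held it at least once. Windows were given for 7 of the 9 genes, and neither the pair nor CACGTG was found in those of Slc2a1, Slc2a8, Slc2a9, Slc2a10 and Slc2a12, nor in those of Arrdc1, Arrdc2 and Arrdc3. No binding was measured in these cells.

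Slc2a1 (ENSMUSG00000028645, chr4:119108711-119137983, plus strand) was the most abundant of the 9 genes in each group. It was at 44.1, 58.4, 66.0, 135.7 and 37.1 TPM in siLmod1 lines 1, 2, 3, 4 and 7. Levels in siSirt1 were 56.8, 89.4, 74.9, 80.0 and 48.2 TPM, and levels in siCtrl were 52.4, 61.1, 59.0, 166.7 and 45.2 TPM. Line 4 held the highest level in siLmod1 and siCtrl, far above the other lines, but lay within their range in siSirt1. In siLmod1 Slc2a1 was lower than in siCtrl in 4 of 5 lines, with a blocked log2 fold change of -0.19 ± 0.08 (SE; edgeR adjusted p = 0.0787). With the block it passed the threshold without line 3 (edgeR adjusted p = 0.00882) and with no filter (0.0148). It missed the threshold without any other line (0.142 to 0.242). In siSirt1 it was higher in 2 lines and lower in 3, and line 4 differed by -1.33 on the log2 scale. The siSirt1 log2 fold change of -0.30 ± 0.40 had an edgeR adjusted p of 0.88, and without line 4 in both groups it was 0.20 ± 0.23.

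Slc2a4 (ENSMUSG00000018566, chr11:69942539-69948188, minus strand) fell in siLmod1 with the line as a block. It was at 4.37, 13.4, 20.1, 1.16 and 11.2 TPM in siLmod1 lines 1, 2, 3, 4 and 7. The siSirt1 libraries held 14.2, 15.3, 29.2, 0.804 and 14.6 TPM, and the siCtrl libraries held 6.33, 15.1, 20.2, 1.30 and 17.0 TPM. The groups overlapped, and lines differed far more than groups, with line 4 lowest throughout. In siLmod1 all 5 lines were below siCtrl, line 3 by less than 0.01 on the log2 scale. The blocked log2 fold change was -0.34 ± 0.11 (SE; edgeR adjusted p = 0.0405), against -0.29 with an edgeR adjusted p of 0.97 without the block. This call was lost in the blocked fit without line 1, 2 or 7, with edgeR adjusted p-values of 0.145, 0.0825 and 0.159, and in the blocked fit of all 15 libraries (0.42). It was also lost with the block under library totals (0.0737) and in limma on log2(TPM + 1) and log2(TPM + 0.1) (0.104 and 0.0916). In siSirt1, line 1 was higher by 0.97 and line 4 lower by 0.88 on the log2 scale, and the blocked value of 0.09 ± 0.25 had an edgeR adjusted p of 0.854.

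Slc2a12 (ENSMUSG00000037490, chr10:22645011-22704285, plus strand) was the other transporter that fell in siLmod1 with the block. It was at 0.231, 0.278, 1.82, 0.0251 and 2.82 TPM in siLmod1 lines 1, 2, 3, 4 and 7. The siSirt1 values were 1.90, 0.0897, 2.28, 0.385 and 7.92 TPM, and the siCtrl values were 0.814, 0.201, 3.93, 0.0475 and 6.21 TPM. Lines 3 and 7 held most of the reads in siLmod1 and siCtrl, and in line 4 there was 1 count in siLmod1, against 2 in siCtrl. It was lower in siLmod1 in 4 of 5 lines, with a blocked log2 fold change of -1.07 ± 0.25 (SE; edgeR adjusted p = 0.00936) and an edgeR adjusted p of 0.89 without the block. The call was lost without line 7 (edgeR adjusted p = 0.0666) and in the blocked fit of all 15 libraries (0.24). In limma with the block it was lost as well, with adjusted p-values of 0.0705 on log2(TPM + 1) and 0.0908 on log2(TPM + 0.1). In siSirt1 it was higher in 3 lines and lower in 2, with a blocked value of 0.24 ± 0.44 (edgeR adjusted p = 0.776). The kit keeps no strand, and 407 exon bases of Slc2a12, 9.61% of them, also belong to Tbpl1 on the other strand. Tbpl1 fell in siLmod1 as well (-0.29 ± 0.06 with the block, edgeR adjusted p = 0.00438), and its part in the Slc2a12 count was not tested.

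Slc2a8 (ENSMUSG00000026791, chr2:32972990-32982083, minus strand) averaged 12.1 ± 2.61 TPM in siLmod1, 11.95 ± 3.53 TPM in siSirt1 and 9.51 ± 1.84 TPM in siCtrl (SD, n = 5). It was at 14.8, 10.4, 14.95, 10.5 and 9.58 TPM in siLmod1 lines 1, 2, 3, 4 and 7. In siSirt1 it was at 9.78, 8.57, 9.91, 16.3 and 15.1 TPM, and in siCtrl at 12.6, 8.21, 9.14, 9.53 and 8.07 TPM. It was higher in siLmod1 than in siCtrl in 5 of 5 lines, as were 17.4% of the 15022 genes tested, and its blocked log2 fold change of 0.29 ± 0.11 (SE) missed the threshold with an edgeR adjusted p of 0.0586. With the block it passed under upper-quartile scaling (edgeR adjusted p = 0.0412), library totals (0.0277) and no filter (0.0472), and without line 4 (0.031). It missed the threshold without any other line (edgeR adjusted p = 0.0968 to 0.19). Blocked fits with median-ratio scaling (edgeR adjusted p = 0.0555) and with DESeq2 (adjusted p = 0.0639) missed it as well. Blocked limma gave adjusted p-values of 0.0387 on log2(TPM + 1) and 0.0358 on log2(TPM + 0.1). The blocked edgeR fit of all 15 libraries gave 0.341. In siSirt1 lines 4 and 7 were higher by 0.51 and 0.68 and line 1 lower by 0.55 on the log2 scale, with a blocked value of 0.16 ± 0.20 (edgeR adjusted p = 0.649).

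Slc2a10 (ENSMUSG00000027661, chr2:165503787-165519917, plus strand) and Slc2a3 (ENSMUSG00000003153, chr6:122727809-122801640, minus strand) were near the limit of detection. Slc2a10 held 4, 1, 4, 17 and 0 counts in siLmod1 lines 1, 2, 3, 4 and 7, against 25, 1, 13, 97 and 0 in siSirt1 and 4, 1, 20, 27 and 0 in siCtrl. Line 7 had no count in any group, below a floor of 3 counts per library. Line 4 supplied 97 of the 136 counts of siSirt1, and without that library the log2 fold change in siSirt1 over siCtrl was -0.01, against 1.44 ± 1.27 (SE) with it (edgeR adjusted p = 0.78). In the blocked fit of all 15 libraries the log2 fold change of Slc2a10 in siSirt1 over siLmod1 was 2.29 ± 0.51, given as a description with no p. It had too few reads in the fit of those groups alone and was kept when the siCtrl libraries were added. Lines 2 and 7 held 1 and 0 counts in both groups. Slc2a3 had 3 to 27 counts per library and 0.064 to 0.380 TPM, with line 3 the highest in each group, and passed the test in no comparison.

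**Figure D3:**
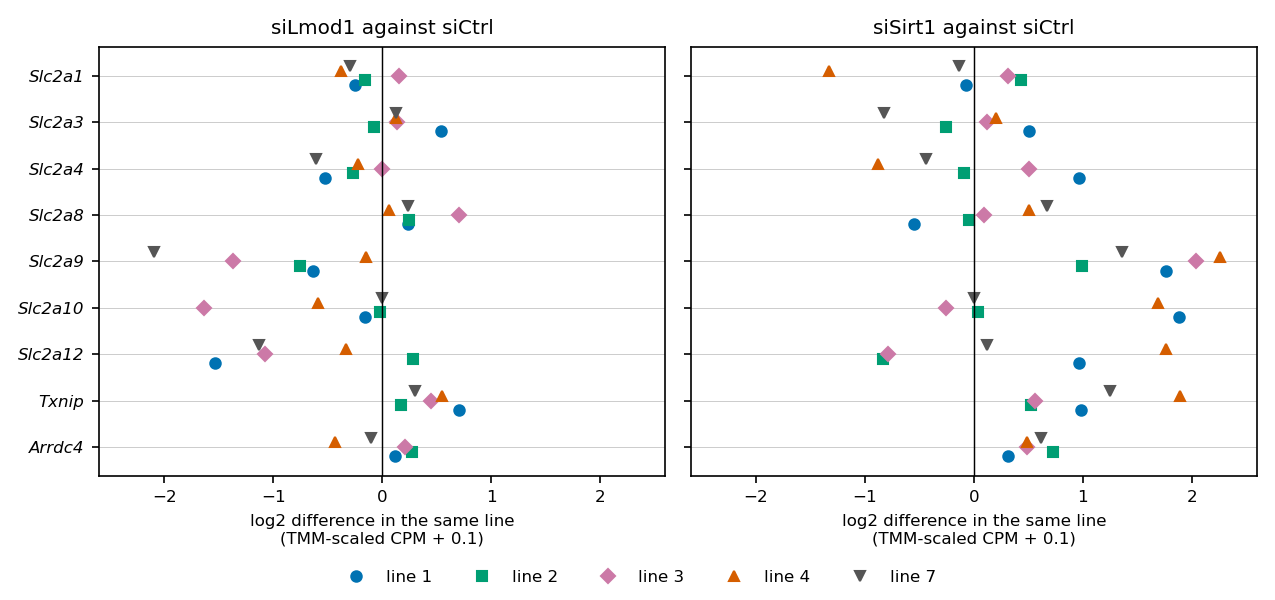
Log2 difference between a knockdown library and the siCtrl library of the same line, for siLmod1 (left) and siSirt1 (right), on TMM-scaled CPM plus 0.1. Each point is 1 line. All 5 Txnip points lie above 0 in both panels, all 5 Slc2a9 points lie below 0 in siLmod1 and above 0 in siSirt1, and the Slc2a1, Slc2a4 and Slc2a12 points in siSirt1 fall on both sides of 0.

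Counted over the 7 genes not chosen for their change, 6 had enough reads to test in siLmod1 against siCtrl, 7 in siSirt1 against siCtrl and 6 in siSirt1 against siLmod1. None was called at an edgeR adjusted p under 0.05 without the block, where 0.113%, 0.127% and 1.53% of all tested genes were called in the 3 comparisons in that order. With the block, 2 of 6 were called lower in siLmod1, Slc2a12 and Slc2a4, beside 29.5% of all genes called in either direction and 16.5% called lower. With the block no member was called in siSirt1 against siCtrl, where 7.07% of genes were called, nor in siSirt1 against siLmod1, where 15.9% were. The blocked fit of all 15 libraries called 0 of 7 in siLmod1, beside 9.08% of all genes, and 1 in siSirt1 (Arrdc4, higher), beside 16.1%. It called 2 in siSirt1 against siLmod1 (Arrdc4 and Slc2a10, higher), beside 26.8%. Slc2a10 had too few reads in the fit of that pair alone, and its call is not read as a result. At these shares, the counts over 7 genes are near the background.

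**Figure D4:**
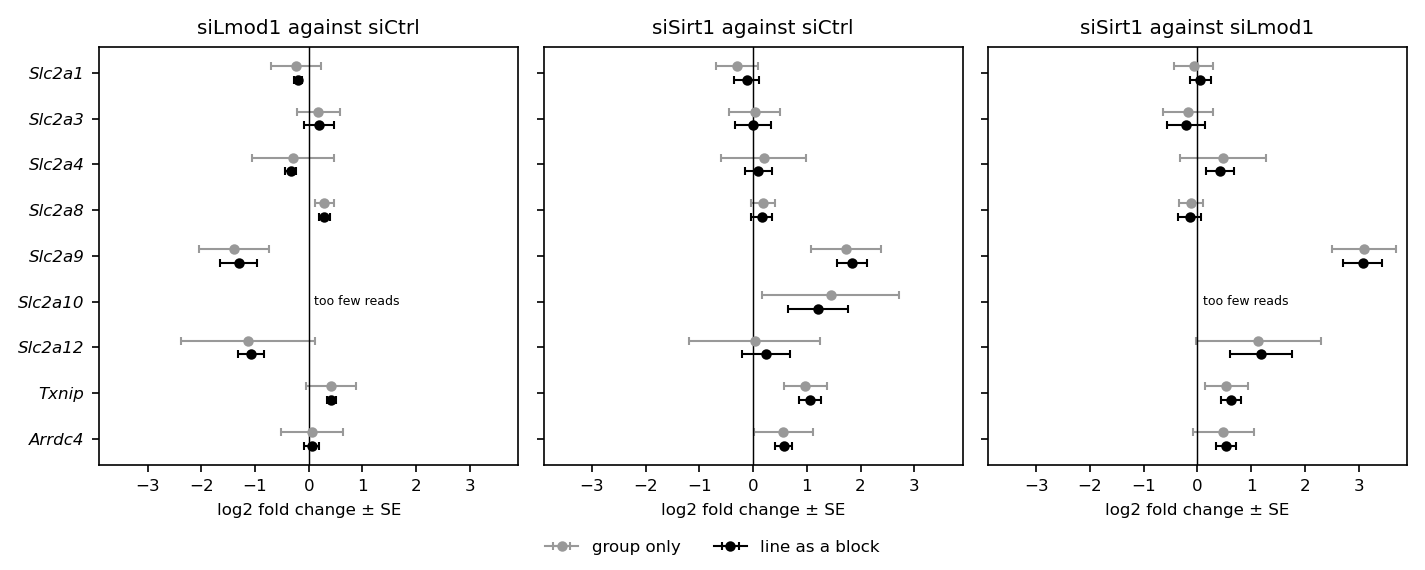
Fitted log2 fold change of each gene with its SE (edgeR) for siLmod1 against siCtrl, siSirt1 against siCtrl and siSirt1 against siLmod1, in grey from the group alone and in black with the line as a block. The error narrows with the block for most genes, and Slc2a9 has the largest values, down to -1.39 in siLmod1 and up to 3.10 in siSirt1 against siLmod1.

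In siCtrl the order of mean levels was Slc2a1 (76.9 ± 50.6 TPM; SD, n = 5), Txnip (16.3 ± 7.31), Slc2a4 (12.0 ± 7.87), Slc2a8 (9.51 ± 1.84), Arrdc4 (3.08 ± 1.67), Slc2a12 (2.24 ± 2.72), Slc2a9 (0.545 ± 0.465), Slc2a10 (0.295) and Slc2a3 (0.168). Slc2a1 exceeded Txnip and Txnip exceeded Slc2a4 in 5 of 5 siCtrl libraries. Slc2a8 exceeded Arrdc4 in 5 of 5 as well. Slc2a4 exceeded Slc2a8 in 3 of 5, and each step from Arrdc4 downward held in only 3 of 5, so those neighbours did not separate. In siSirt1, Slc2a9 averaged 2.03 ± 1.39 TPM, and the Slc2a12 mean of 2.51 ± 3.16 TPM was above it in 2 of 5 libraries. In siLmod1, Slc2a9 averaged 0.210 ± 0.145 TPM and was above Slc2a3 in 2 of 5 libraries.

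Likeness to Txnip and to Slc2a9 was measured as Pearson's r of log2 CPM over the 15 libraries after the mean of each line was removed. The points share their 3 groups and their libraries, so r is given as a description. The genes most like Slc2a9 among 9995 compared were Shmt1 (0.985), which encodes the cytosolic serine hydroxymethyltransferase, Csnk1e (0.973), Mtbp (0.973), Ctcf (0.967) and Snn (0.96). Shmt1 averaged 7.52 TPM in siLmod1, 14.4 TPM in siSirt1 and 9.15 TPM in siCtrl, and Snn averaged 48.3, 114.4 and 71.1 TPM in the same order. The genes most like Txnip among 9994 were Slc4a1ap (0.977), Pla2g15 (0.976), which encodes a lysosomal phospholipase, Prex1 (0.973), Zdhhc4 (0.965) and BC005624 (0.965). Pla2g15 averaged 12.2 TPM in siLmod1, 20.0 TPM in siSirt1 and 8.27 TPM in siCtrl. Of the other alpha-arrestins only Arrdc3 and Arrdc4 were compared with Txnip, with r of 0.817 for Arrdc3 and 0.78 for Arrdc4. Between Txnip and Slc2a9 r was 0.616, and between Txnip and Slc2a1 -0.567. In line 4, siSirt1 differed from siCtrl by 1.89 for Txnip and by -1.33 for Slc2a1 on the log2 scale, the widest difference from siCtrl for either gene. No correlation was computed without line 4, so the value of -0.567 is not read as a relation between the genes.

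Genes around the transporters were followed in lists, with calls from the blocked fit of each pair of groups, which called 29.5% of all genes in siLmod1 and 7.07% in siSirt1 against siCtrl. The lists' counts are read against these shares. Without the block, Rac1, lower in siLmod1, was the only gene of these 10 lists called against siCtrl in either knockdown. Counts from the blocked fit of all 15 libraries, which called 9.08% of all genes in siLmod1 and 16.1% in siSirt1, are given after each list, for the genes with enough reads in that fit. A list of 14 other hexose and sugar transporters had 6 members with enough reads. In siLmod1, Slc2a5, the fructose transporter GLUT5, fell to 2.76 ± 1.45 TPM, against 5.73 ± 1.81 TPM in siCtrl (SD, n = 5; log2 fold change -1.18 ± 0.22 SE, edgeR adjusted p = 0.00299). Slc45a4 rose by 0.25 (edgeR adjusted p = 0.00871, and 0.212 in the fit of all 15 libraries), and in all 1 of the 6 rose and 2 fell. In siSirt1 none of the 6 was called. The fit of all 15 libraries called 0 higher and 1 lower in siLmod1, and 0 in siSirt1. Of the 16 genes of the thioredoxin system, to which Txnip binds, 6 rose and 3 fell in siLmod1, with a median log2 fold change of 0.07, against -0.01 over all genes. Txnrd1, the cytosolic thioredoxin reductase, fell to 136.7 ± 15.9 TPM in siLmod1, against 180.2 ± 26.1 TPM in siCtrl (edgeR adjusted p = 0.000435), and Prdx3, the mitochondrial peroxiredoxin, rose to 263.1 ± 28.3 TPM, against 205.6 ± 26.3 TPM (edgeR adjusted p = 0.000751, and 0.122 with all 15 libraries). In siSirt1, 0 rose and 2 fell (median -0.20, against 0.01 over all genes): Prdx2 at 162.3 ± 6.29 TPM, against 211.7 ± 19.8 TPM in siCtrl, and Prdx5 with an edgeR adjusted p of 0.0489. With all 15 libraries, 2 rose and 2 fell in siLmod1, and 1 rose and 5 fell in siSirt1. Txnrd1 averaged 268.2 ± 73.0 TPM in siSirt1, which the blocked fit of the pair did not call against siCtrl. It was higher in siSirt1 than in siLmod1, with a blocked log2 fold change of 0.83 ± 0.13 (edgeR adjusted p = 0.00757, and 0.0372 without the block).

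The Mondo and Mlx list holds the glucose-sensing factors and their Myc and Max relatives. In siLmod1, 5 of 10 rose and 0 fell, with a median log2 fold change of 0.22, against -0.01 over all genes. These included Mnt (0.38, edgeR adjusted p = 0.00372) and Mga (0.27, 0.00299, and 0.0596 with all 15 libraries), both partners of Max. In siSirt1, 2 of 11 rose, Myc (1.11 ± 0.25, edgeR adjusted p = 0.0394) and Max, with a median of 0.23. With all 15 libraries, 1 of 11 rose and 0 fell in siLmod1, and 3 rose and 2 fell in siSirt1. Liver targets of ChREBP other than Txnip and Arrdc4 had 2 of 14 higher and 4 lower in siLmod1, among them Scd1 (-1.01, edgeR adjusted p = 0.000483) and Rgs16 (-0.71, 8.68e-05). In siSirt1 0 of 13 were called. With all 15 libraries, 0 of 14 rose and 3 fell in siLmod1, and 1 rose and 1 fell in siSirt1. Of the AMPK subunits and genes of Txnip turnover, 3 of 10 rose and 4 fell in siLmod1, with the gamma subunits moving in different comparisons: Prkag3 fell in siLmod1 (-0.45, edgeR adjusted p = 0.000355, and 0.13 with all 15 libraries), and Prkag2 rose in siSirt1 (0.47, edgeR adjusted p = 0.0407), the only call there. With all 15 libraries, none of the 10 was called in siLmod1, and 2 rose and 2 fell in siSirt1.

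Of 21 genes for GLUT4 storage and traffic, 4 rose and 4 fell in siLmod1, and 1 rose and 1 fell in siSirt1. Rac1, a small GTPase that remodels actin during GLUT4 translocation, fell to 57.5 ± 13.4 TPM in siLmod1, against 125.0 ± 11.7 TPM in siCtrl (log2 fold change -1.19 ± 0.09, edgeR adjusted p = 2.87e-05). Insr, the insulin receptor, rose to 23.0 ± 2.42 TPM in siLmod1, against 17.1 ± 2.94 TPM in siCtrl (edgeR adjusted p = 0.000654). Insr was also the gene that rose in siSirt1, to 25.4 ± 4.98 TPM. Its log2 fold change there was 0.43 ± 0.11, just under the threshold with the block (edgeR adjusted p = 0.00846 with all 15 libraries). Tbc1d1, a Rab GTPase-activating protein that retains GLUT4 vesicles, fell in siSirt1 to 52.0 ± 7.99 TPM, against 71.5 ± 14.5 TPM in siCtrl (edgeR adjusted p = 0.0131). Of these 21, 1 rose and 3 fell in siLmod1 with all 15 libraries, and 2 rose and 1 fell in siSirt1. Among 10 regulators of Slc2a4 transcription, 1 rose and 3 fell in siLmod1 and 0 were called in siSirt1. Ppargc1a, a coactivator of oxidative metabolism, rose to 17.2 ± 6.63 TPM in siLmod1, against 10.1 ± 3.64 TPM in siCtrl (edgeR adjusted p = 7.04e-05), and Mef2a fell by 0.44 (0.000454). Of these 10, the fit of all 15 libraries called 1 higher and 2 lower in siLmod1, and 0 higher and 1 lower in siSirt1.

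Downstream of uptake, 3 of 21 genes of glucose phosphorylation and glycogen rose and 1 fell in siLmod1, and 0 rose and 1 fell, Pgm2, in siSirt1. Gbe1, the glycogen branching enzyme, rose to 34.7 ± 14.98 TPM in siLmod1, against 21.3 ± 7.89 TPM in siCtrl (log2 fold change 0.63 ± 0.05, edgeR adjusted p = 4.95e-05). Pgm1, which links glucose phosphate to glycogen, rose by 0.37 (edgeR adjusted p = 0.000618, and 0.469 with all 15 libraries). That fit of all 15 libraries called 1 of the 21 higher and 0 lower in siLmod1, and 3 higher and 4 lower in siSirt1. Between the knockdowns, siSirt1 over siLmod1, Gbe1 was lower (-0.80, edgeR adjusted p = 0.00523) and Pfkfb3, an activator of glycolysis, was higher (1.05, 0.0119). Of 17 hypoxia response genes, 3 rose and 3 fell in siLmod1, and 1 rose and 2 fell in siSirt1, with a median of -0.27 in siSirt1. With all 15 libraries, 0 of 18 rose and 1 fell in siLmod1, and 1 rose and 2 fell in siSirt1. Egln3, an oxygen-sensing prolyl hydroxylase, fell in siSirt1 to 39.0 ± 26.0 TPM, against 88.7 ± 37.7 TPM in siCtrl (edgeR adjusted p = 0.00806). Ddit4, an inhibitor of mTORC1 signalling, fell in both, by 0.60 in siLmod1 (edgeR adjusted p = 0.0013) and by 0.85 in siSirt1 (0.0153). Of 9 tested genes of urate and purine breakdown, the pathway that makes the main cargo of GLUT9, 3 fell in siLmod1, including Ada (-0.66, edgeR adjusted p = 0.0441, and 0.196 with all 15 libraries), and 0 were called in siSirt1. That is near the share of all genes called, and with all 15 libraries 0 of 11 were called in either knockdown.

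Markers of other cell types summed to far less than those of myoblasts. In bulk libraries fewer cells of a type and less RNA per cell cannot be told apart. The summed level of 6 fibroblast markers was 30.5 to 100.5 TPM in siLmod1, 40.8 to 266.0 TPM in siSirt1 and 40.7 to 169.8 TPM in siCtrl, with Pdgfra and Lum under 1 TPM in every library. The sum of 6 pericyte and smooth muscle markers was 30.3 to 72.2 TPM in siLmod1, 48.9 to 129.3 TPM in siSirt1 and 48.9 to 151.7 TPM in siCtrl, with Kcnj8 and Myh11 under 1 TPM throughout. Within lines, siLmod1 was below siCtrl in 5 of 5 lines for the fibroblast sum (0.398 to 0.75 times its level) and the pericyte and smooth muscle sum (0.439 to 0.62 times). The myoblast sum was also lower in 5 of 5 lines (0.873 to 0.942 times), but its markers did not all move alike. Myog averaged 3096 ± 1268 TPM in siLmod1, against 4281 ± 1706 TPM in siCtrl (SD, n = 5). Des averaged 2509 ± 268 TPM in siLmod1, against 2373 ± 439 TPM in siCtrl, and Myod1 1379 ± 234 TPM, against 1305 ± 244 TPM. Of the 9 genes, Slc2a9 and Slc2a4 were lower in siLmod1 in 5 of 5 lines, and Slc2a1, Slc2a10 and Slc2a12 in 4. Txnip and Slc2a8 were higher in 5 of 5 lines, Slc2a3 in 4 and Arrdc4 in 3. Over all tested genes, 18.7% were lower and 17.4% higher in 5 of 5 lines of siLmod1, so these counts are near the background. Txnip and Slc2a9 were also chosen for their change. Of 5 adipocyte markers, Adipoq, Plin1, Cidec and Fabp4 stayed under 1 TPM throughout, and the sum was 0.757 to 8.40 TPM in siLmod1, 1.96 to 7.83 TPM in siSirt1 and 0.434 to 3.05 TPM in siCtrl. The adipocyte sum, in which Pparg was the remaining marker, was higher in siSirt1 than in siCtrl in 5 of 5 lines (2.07 to 7.42 times). So were Txnip, Slc2a9 and Arrdc4, and 10.6% of all tested genes. That sum was also higher in siLmod1 than in siCtrl in 4 of 5 lines (0.8 to 3.55 times). The endothelial sum reached 1.56 TPM at most, the leukocyte sum 7.47, the Schwann sum 7.41 and the erythroid sum 2.88. The part of these cells in the levels of the 9 genes was not tested.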

How the data were processed

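RNA was measured as polyadenylated RNA in 15 libraries made with a TruSeq v2 kit, per the labels' protocols. The authors deposited raw counts per Ensembl gene and TPM values for each pair of groups, per the file headers. Tables that share a library gave it identical raw counts and TPM values. The deposited normalized counts were not used here. DESeq2 and the build mm10 are listed in the submitters' processing notes. An aligner, counter or annotation is not given in the sources used here. Symbols were matched for 48970 of 49315 gene IDs. Because the kit keeps no strand, reads from overlapping genes cannot be told apart: Txnip shares 606 exon bases (19.4%) with the antisense gene Gm15441, which held 46 counts over all libraries, and Slc2a1 shares 105 bases (3.0%) with Gm12868 (88 counts). The Slc2a genes are paralogs, and reads shared between copies could be split in ways not given in the sources.

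For each pair of groups, genes with few reads were removed with filterByExpr, scaled by TMM and tested with the quasi-likelihood F test of edgeR 4.0.16 in R 4.3.3. Calls were made at an adjusted p (Benjamini-Hochberg) under 0.05 over all genes tested, with 8 residual degrees of freedom, or 4 with the line as a block. The SE is the log2 fold change over the square root of F. limma 3.58.1 and DESeq2 1.42.0 served as alternatives. The numbers pair the libraries because the series text gives 5 lines. After the group means were removed, libraries of the same number correlated over 14592 genes at 0.299 to 0.91 (median 0.768, 15 pairs), and libraries of different numbers at -0.539 to 0.296 (median -0.143, 60 pairs). Removing the group means itself pushes the correlation of different numbers below 0. The siSirt1 library of line 1 had the weakest match. It correlated at 0.299 with siCtrl line 1 and 0.296 with siCtrl line 3, and at 0.327 with siLmod1 line 1 and 0.228 with siLmod1 line 3. The blocked siSirt1 fits and the counts of siSirt1 lines rest in part on that pairing. No source says that the lines came from separate animals, so p-values measure the spread between these libraries. A floor of 3 counts was 0.0893 to 0.143 CPM and covers counting error only.

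The 9 members and the 11 gene lists were chosen with earlier results of these data known. From each list, up to 2 genes per comparison with the smallest p among those called with the block could be named. For Txnip and Slc2a9 the 5 genes with the highest correlation among those averaging 5 CPM or more could be named, leaving out predicted gene models. Arrdc1, Arrdc2 and Tbpl1 were named after their values were seen. Tables were read with Python 3.11.15, numpy 2.4.6, pandas 2.3.3 and scipy 1.17.1.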

Additional observations from a re-analysis of the deposited data

Results flagged for a closer look

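In each group of 5 libraries, the gap between the highest or lowest library and its nearest neighbour was compared with the whole range of the group, and 6 of the 27 combinations of gene and group held a library that stood apart by Dixon's criterion. Chance alone flags about 1 in 20 such groups. Slc2a1 in siCtrl was at 166.7 TPM in line 4, where the next library had 61.1 TPM. Slc2a10 was at 0.5065 TPM in siLmod1 line 4 (next 0.1139) and at 3.167 TPM in siSirt1 line 4 (next 0.8296). Slc2a3 was at 0.3789 TPM in siLmod1 line 3 (next 0.1624) and at 0.3397 TPM in siCtrl line 3 (next 0.162), on 27 and 25 counts. Slc2a12 in siSirt1 was at 7.915 TPM in line 7 (next 2.275).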

How the results depend on the processing

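The log2 fold changes of the 9 genes were recomputed 820 times under other settings: 728 values kept their direction and their side of the threshold, or for Txnip and Slc2a9 stayed within 1 SD, 28 newly passed the threshold, 4 moved by more than 1 SD and 60 changed sign. Txnip and Slc2a9 changed sign under none of the alternatives run. The 4 that moved were Slc2a9 on log2(TPM + 1), at -0.312 in siLmod1 and 1.209 in siSirt1 against siLmod1, each with and without the block; that pseudocount exceeds most Slc2a9 levels.

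The number of genes called depended most on the replicate block. For siLmod1 against siCtrl it was 17 without the block (1351 at an unadjusted p under 0.05) and 4430 with it, for siSirt1 against siCtrl 19 (1440) and 1054, and for siSirt1 against siLmod1 229 (2475) and 2379. In the same order of comparisons, a fit of all 15 libraries called 38, 150 and 554, and 1427, 2530 and 4210 with the block. DESeq2 called 360, 376 and 1154, and 4052, 2005 and 3265 with the block. With no filter on low counts the numbers were 6, 7 and 90, and 4803, 1809 and 2933 with the block. With the block, median-ratio scaling gave 4426, 1046 and 2386, upper-quartile scaling 4558, 1038 and 2380, and library totals 4719, 1238 and 2313. limma with the block gave 4197, 1031 and 2144 on log2(TPM + 1) and 4200, 1038 and 2131 on log2(TPM + 0.1). Without the block, siSirt1 against siCtrl gave 7 with library totals and 2 with limma under either pseudocount. The cause of these differences was not tested. Library totals moved the median log2 fold change of all genes in siSirt1 against siCtrl to 0.13, against 0.02 under TMM. The blocked calls were then 2741 higher and 1978 lower in siLmod1, against 1944 and 2486 under TMM, 797 and 441 in siSirt1, against 406 and 648, and 1409 and 904 in siSirt1 against siLmod1, against 1115 and 1264.

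Leaving out 1 library without the block gave 3 to 10 calls for siLmod1 against siCtrl, 3 to 13 for siSirt1 against siCtrl and 54 to 247 for siSirt1 against siLmod1. Leaving out 1 line with the block gave 2833 to 4264, 332 to 580 and 946 to 1771 calls in the same order, so without any 1 line the 1054 calls of siSirt1 against siCtrl fell to 580 or fewer. Over both, the ranges of log2 fold changes that changed sign were, for siLmod1 against siCtrl, -0.686 to 0.317 for Slc2a1, -0.163 to 0.54 for Slc2a3 and -0.18 to 0.334 for Arrdc4. For siSirt1 against siCtrl they were -0.444 to 0.263 for Slc2a1, -0.402 to 0.388 for Slc2a3, -0.201 to 0.496 for Slc2a4, -0.013 to 2.236 for Slc2a10 and -1.069 to 0.918 for Slc2a12. For siSirt1 against siLmod1 they were -0.222 to 0.37 for Slc2a1, -0.598 to 0.172 for Slc2a3 and -0.3 to 0.016 for Slc2a8. Line 4 was left out of both groups as an alternative chosen after seeing the data. It gave 19, 5 and 152 calls without the block, and changed the sign in siSirt1 against siCtrl of Slc2a1 (0.202), Slc2a3 (-0.029) and Slc2a12 (-0.016), and of Slc2a1 in siSirt1 against siLmod1 (0.323).

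Other changes of sign concerned values near 0. Slc2a1 in siSirt1 against siCtrl was 0.007 on log2(TPM + 1) and 0.008 on log2(TPM + 0.1), with and without the block. Slc2a1 in siSirt1 against siLmod1 was 0.051 with the block, 0.092 in the blocked fit of all 15 libraries, 0.058, 0.069 and 0.127 with the block under median-ratio, upper-quartile and library-total scaling, 0.042 unfiltered with the block, 0.059 in DESeq2 with the block, and 0.151 and 0.155 on the 2 TPM scales. Slc2a3 in siSirt1 against siCtrl was -0.003 with the block, -0.007 with the block and median-ratio scaling, -0.004 unfiltered, -0.043 unfiltered with the block and -0.032 in DESeq2 with the block. Slc2a12 in siSirt1 against siCtrl was -0.01 unfiltered. With the block, the Slc2a4 call in siLmod1 was lost under library totals and limma, and the Slc2a12 call under limma (-0.444 with an adjusted p of 0.0705 on log2(TPM + 1), -0.711 with 0.0908 on log2(TPM + 0.1)). The low counts of Slc2a3, Slc2a9, Slc2a10 and Slc2a12 limit the precision of their fold changes.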
